A study of Saccharomyces cerevisiae and Saccharomyces cerevisiae x Saccharomyces paradoxus and Saccharomyces cerevisiae x Saccharomyces mikatae with 18 samples.

Results

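Expression of the genes of ergosterol synthesis was followed along the pathway in 4 Saccharomyces yeasts and in hybrids between them. The 31 genes were listed by name, through their open reading frames: the enzymes from acetyl-CoA to ergosterol, their electron donors NCP1 and CYB5, the acyltransferases ARE1 and ARE2, which esterify sterols, and the transcription factors UPC2, ECM22, SUT1 and HAP1. The files listed 28 of the 31 among 4730 genes, and all 28 passed the filter on low values in every comparison. ERG8 (phosphomevalonate kinase, YMR220W), ARE2 (YNR019W) and HAP1 (YLR256W) were not analysed here.

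The study compared total expression between species in homozygotes and allelic expression within interspecific hybrids, by RNA-seq of transcript ends in 18 libraries from cultures grown in YPD at 25 °C to log phase (OD at 600 nm of 0.65 to 0.75). The homozygotes were S. paradoxus CBS 432, S. mikatae IFO 1815 and S. bayanus CBS 7001, with 2 biological replicates each, and S. cerevisiae YHL068 with 6 libraries, a pair of them for each of the other species. The hybrids, with 2 replicates each, were YYM014 (BY4716 x OZY361, with S. paradoxus), YYM030 (BY4716 x JRY9175, with S. mikatae) and YYM015 (BY4716 x JRY9191, with S. bayanus), and each library gave a value for both alleles of a gene. YHL068 (BY4741 x BY4716) was heterozygous for lys2, leu2, his3, met15 and ura3, YYM014 for lys2, ade2 and ura3, YYM030 for lys2 and his3, and YYM015 for lys2, his3 and ura3, with lys2 deleted on the S. cerevisiae side of every hybrid. None of these is an ergosterol gene, and each species or hybrid was represented by 1 strain. As background, the laboratory lineage of the BY strains is known to carry a Ty element in HAP1, and whether that has a part in any value below was not tested.

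The deposited totals were 4760197 to 6883279 in homozygote libraries and 2255430 to 3336994 for single alleles. As a check of the S. cerevisiae allele in hybrids, LYS2 had scaled scores of 94.9 and 75.6 for the S. paradoxus allele, 216 and 214 for the S. mikatae allele and 82.8 and 120.3 for the S. bayanus allele, and no S. cerevisiae allele exceeded 1.87. The hybrids share their S. cerevisiae parent, so LYS2 cannot tell them apart from each other. All values below are scaled scores, that is, deposited GC-weighted read sums brought to a common upper quartile over libraries and alleles, and log2 ratios with standard errors (SE) and Benjamini-Hochberg adjusted p are from limma on log2(scaled score + 1), with n = 2 in each group. Since they are relative to the upper quartile, a change in RNA per cell cannot be told apart from a change in all other genes.

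Ergosterol is the main sterol of fungal membranes and takes the place that cholesterol has in animals. Its synthesis begins with the mevalonate route to farnesyl diphosphate, continues through squalene to lanosterol, and ends in a long series of oxygen-consuming demethylations, desaturations and reductions at the endoplasmic reticulum. The zinc-cluster activators Upc2 and Ecm22 bind the sterol response element (SRE), with the core TCGTATA, in the promoters of many of these genes. Azole and morpholine antifungals act on the late enzymes.

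The SRE core was searched on both strands of the 500 bases before each start codon in the RefSeq annotation of S. cerevisiae S288C (R64). It was present in 9 of the 31 named genes (29.0%), 8 of them among the 28 listed, against 420 of all 6000 protein-coding genes (7.0%). The Hap1 site, a spaced pair of CGG triplets with TA between them, was in none of the 31 windows and in 21 of all 6000 (0.35%). The sites of the 8 listed genes are shown, with 10 bases on each side, because ERG28, ERG2 and ERG3, described in detail, carry them; MVD1, the other member that differed in homozygotes of every species pair, does not. Each is written on the strand of its gene, and capitals mark the core, as TCGTATA or as its reverse complement TATACGA.

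ERG13, first site (chrXIII:20733-20759, minus strand): ggaataagctTCGTATAtacaatagaa
ERG13, second site (chrXIII:20620-20646, minus strand): ggctattaatTATACGAgtgtgttgaa
ERG1 (chrVII:848789-848815, minus strand): tagcgggcctTCGTATAgctcggccga
ERG25, first site (chrVII:610071-610097, plus strand): ctgcctccctTCGTATAcgggacacag
ERG25, second site (chrVII:610091-610117, plus strand): gacacagagaTCGTATAcggtaaacga
ERG28 (chrV:238278-238304, minus strand): aacctaatctTATACGAactgaattaa
ERG6 (chrXIII:253406-253432, minus strand): gccccgatctTCGTATAtggtacctcg
ERG2 (chrXIII:667342-667368, plus strand): accacggcccTCGTATAagccgcaagg
ERG3, first site (chrXII:253525-253551, plus strand): aaccggggtgTATACGAggccgatggc
ERG3, second site (chrXII:253565-253591, plus strand): aaattcaggcTCGTATAagtggcacaa
CYB5 (chrXIV:417561-417587, minus strand): aaaagaaagcTATACGAgatcgagata

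The cores lay from 94 bases (ERG13) to 476 bases (ERG25) before the start codon. Of the 8 listed genes with a core, 5 differed between homozygotes of at least 1 species pair at adjusted p under 0.05, and 13 of the 20 listed genes without one did. In hybrid alleles the counts were 5 of 8 and 7 of 20. Genes with and without a core were not tested against each other. Of all genes tested in every species pair, 54.5% of 4490 differed in homozygotes of at least 1 pair, beside 64.3% of the 28 listed members. In alleles the share was 45.9% of 4418 genes, beside 42.9% of the members. A match is only a description of the S. cerevisiae sequence, and promoters of the other species were not used here.

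In homozygotes, ergosterol genes that differed from S. cerevisiae were mostly higher. In S. paradoxus, 7 of the 28 were higher and 3 lower (35.7%), against 19.9% of all 4588 genes tested. In S. mikatae, 10 were higher and 1 lower (39.3%), against 19.6% of 4568. In S. bayanus, 8 were higher and 3 lower (39.3%), against 34.6% of 4576, a share close to that of all genes. The background for higher calls alone was 8.37% of all genes in S. paradoxus, 8.21% in S. mikatae and 18.3% in S. bayanus, and for lower calls 11.5%, 11.4% and 16.3% in the same order. Over the members, the median log2 ratio was 0.21 in S. paradoxus, 0.60 in S. mikatae and 0.45 in S. bayanus, beside -0.20, -0.13 and 0.02 over all genes tested. The S. paradoxus median turned to -0.04 when libraries were scaled by their total, while all genes moved with it to -0.46, and the members' median stayed 0.41 to 0.42 above that of all genes under the 3 scalings. It also turned to -0.11, beside -0.24 over all genes, without the first S. cerevisiae library of that pair, and was 0.21 to 0.34 without any other library of it. In S. bayanus it was 0.23 without the first S. cerevisiae library of its pair and 0.29 without the second S. bayanus library, against 0.45 with all 4, and 0.24 against all 6 S. cerevisiae libraries. The S. mikatae median was 0.25 when scaled by totals, beside -0.47 over all genes.

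Across the 3 comparisons, 18 members (64.3%) passed the test in at least 1 species and 10 in none, beside 54.5% of the 4490 genes tested in all 3. The 4 that passed in every species were MVD1, ERG28 and ERG2, which were higher, and ERG3, which was lower. They were 14.3% of the members, beside 3.03% of all genes. The log2 ratio was above 0 in all 3 species for 11 members (39.3%, beside 16.7% of all genes) and below 0 in all 3 for 6 (21.4%, beside 22.9%). With each library left out in turn and the spread pooled over all homozygotes, 7 of the 10 calls in S. paradoxus, 8 of 11 in S. mikatae and 8 of 11 in S. bayanus were kept in every case. Lost whichever library was left out were ERG2 (adjusted p = 0.0694 to 0.134), ERG7 (0.134 to 0.21) and UPC2 (0.155 to 0.309) in S. paradoxus, HMG1 (0.0583 to 0.0812) and IDI1 (0.155 to 0.313) in S. mikatae, and IDI1 (0.131 to 0.161) and UPC2 (0.23 to 0.369) in S. bayanus. ERG6 in S. mikatae was lost only without the first S. cerevisiae library of the pair (0.0638), and ERG27 in S. bayanus without the first S. cerevisiae library (0.0788) or the second S. bayanus library (0.0919). In 1 fit over 12 homozygote libraries, pooling alone ended 4 of 32 calls. A loss with a library left out therefore cannot be told apart from the pooling. Scaled by totals, MVD1, ERG7, ERG2 and UPC2 in S. paradoxus and HMG1, IDI1, ERG24 and ERG6 in S. mikatae no longer passed.

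In hybrids, the calls were counted in the same way. In the S. paradoxus hybrid 2 of 28 members were called, both lower (7.14%), against 5.03% of all genes (lower 2.57%, higher 2.46%). Of the S. mikatae alleles 2 were higher and 2 lower (14.3%), against 15.8% (higher 7.78%, lower 7.98%), while of the S. bayanus alleles 4 were higher and 4 lower (28.6%), against 35.4% (higher 18.3%, lower 17.1%). None of these shares stood above that of all genes by more than a few points. Both alleles of a replicate come from the same library, and with the library as a block no member passed in the hybrid with S. paradoxus (0% of all genes) or in that with S. mikatae (0% of all genes), while 7 members passed in the hybrid with S. bayanus, where 23.6% of all genes did. At an unadjusted p under 0.05 in limma without the block, 10 of 28 members passed in alleles against 12 in homozygotes for S. paradoxus. The counts were 11 against 14 for S. mikatae and 17 against 13 for S. bayanus. Of all genes, 1253 of 4509 passed in alleles and 1796 of 4588 in homozygotes for S. paradoxus. They were 1697 of 4537 and 1796 of 4568 for S. mikatae, and 2202 of 4533 and 2205 of 4576 for S. bayanus. The counts of homozygotes and alleles were not tested against each other. At the same unadjusted p the blocked limma fit gave 10 members and 1187 of all genes in the S. paradoxus hybrid, and 9 members and 1533 of all genes in the S. mikatae hybrid. Without 1 or the other hybrid library, and with the spread pooled over the alleles of all hybrids, the calls kept in both cases were few. They were ERG3 in the S. paradoxus hybrid, ERG3 and ARE1 in the S. mikatae hybrid and ERG10 in the S. bayanus hybrid. Pooling alone, in 1 fit over 12 allele columns, ended 5 of 14 calls, so a loss here cannot be told apart from the pooling. ERG13 in the S. bayanus hybrid, for example, was lost at log2 ratios of 0.95 and 1.15.

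**Figure D1:**
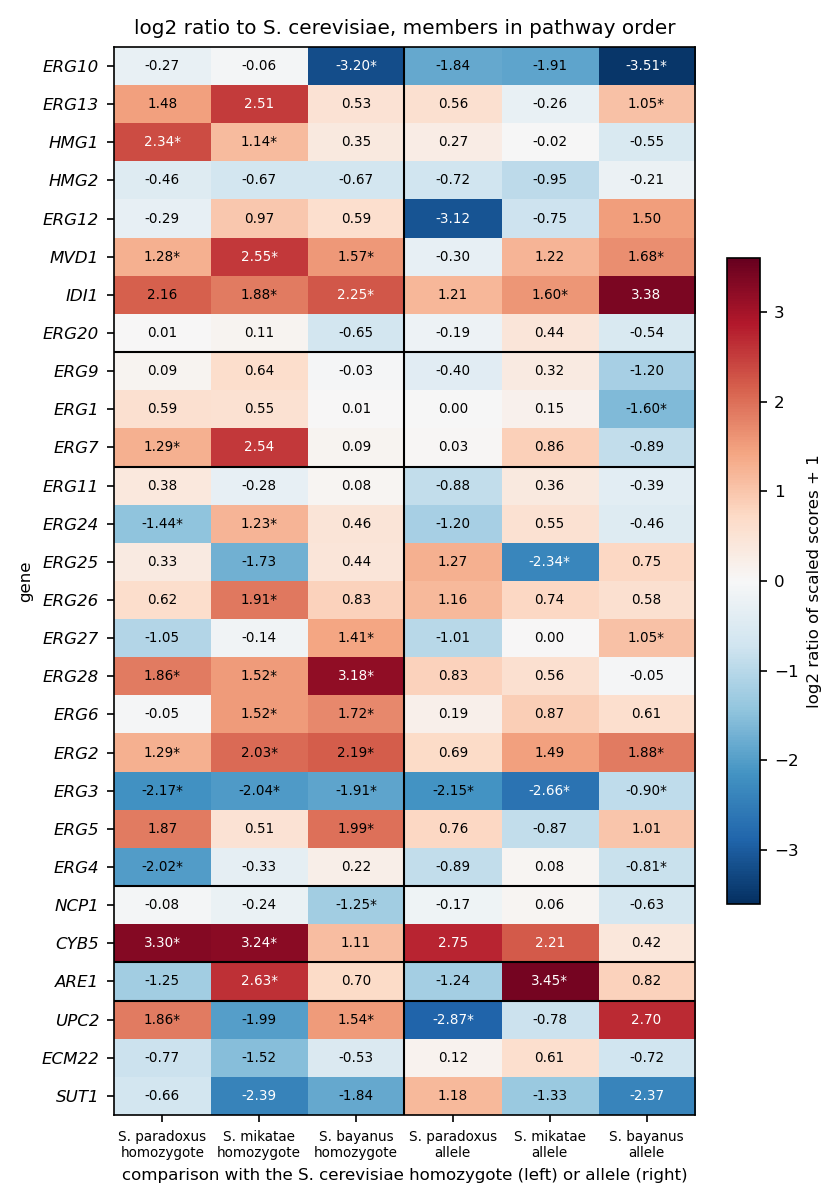
Log2 ratio of each of the 28 members to S. cerevisiae, in pathway order from top to bottom, for homozygotes (the 3 columns on the left) and for hybrid alleles (the 3 on the right); red is higher and blue lower than S. cerevisiae, an asterisk marks adjusted p under 0.05 without the library block, and lines part the mevalonate, squalene, late sterol, electron-donor, ester and regulator genes. ERG3 is blue in all 6 columns, from -2.66 to -0.90, and ERG2 red in all 6, from 0.69 to 2.19.

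Of the 8 listed mevalonate-pathway genes, 2 passed in S. paradoxus homozygotes, 3 in S. mikatae and 3 in S. bayanus, beside 19.9%, 19.6% and 34.6% of all genes. MVD1 (YNR043W), the mevalonate diphosphate decarboxylase, had 4289 and 4281 in S. mikatae homozygotes, against 776 and 686 in S. cerevisiae. It had 1728 and 1775 in S. bayanus against 638 and 547 in S. cerevisiae, and 1030 and 960.3 in S. paradoxus against 456 and 365 in S. cerevisiae. The groups were apart in every pair, by log2 ratios of 2.55 (SE 0.234, adjusted p = 0.0177), 1.57 (SE 0.209, adjusted p = 0.0141) and 1.28 (SE 0.274, adjusted p = 0.0456). Against all 6 S. cerevisiae homozygotes the S. paradoxus ratio was 0.83 and did not pass (adjusted p = 0.0899). In hybrids, the S. bayanus allele had 2680 and 4433 against 1097 and 1048 for the S. cerevisiae allele, a log2 ratio of 1.68 (SE 0.304, adjusted p = 0.0251, 0.0481 with the block). The S. mikatae allele stood at 2917 and 3413 against 1009 and 1808 (log2 ratio 1.22, adjusted p = 0.101), and the S. paradoxus allele at 974.5 and 943 against 1618 and 861 (log2 ratio -0.30, adjusted p = 0.665). Only the S. paradoxus alleles thus overlapped with those of S. cerevisiae.

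IDI1 (YPL117C), which interconverts the activated isoprene units, was also above S. cerevisiae in all 3 species. S. mikatae homozygotes had 1671 and 2273 against 414 and 675 in S. cerevisiae, and S. bayanus homozygotes 1923 and 2210 against 447 and 421. These log2 ratios were 1.88 (SE 0.369, adjusted p = 0.0423) and 2.25 (SE 0.208, adjusted p = 0.01). S. paradoxus had 5984 and 831 against 699 and 354, which did not overlap either, but the spread of the S. paradoxus libraries left a log2 ratio of 2.16 with an SE of 1.06 (adjusted p = 0.209). The allele ratios had the same sign. The S. mikatae allele had 1646 and 2265 against 752 and 543 (log2 ratio 1.60, SE 0.319, adjusted p = 0.0484, lost at 0.105 with the block), the S. paradoxus allele 2019 and 1539 against 707 and 823 (1.21, adjusted p = 0.0974), and the S. bayanus allele 2539 and 18070 against 551 and 771 (3.38, SE 1.05, adjusted p = 0.0799).

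ERG10 (YPL028W), the acetoacetyl-CoA thiolase that opens the pathway, was lower in S. bayanus homozygotes than in those of the other species, relative to S. cerevisiae. S. bayanus homozygotes had 296 and 436 against 3901 and 2818 in S. cerevisiae, and its alleles 510.2 and 445 against 7901 and 3759. Neither pair of groups overlapped, with log2 ratios of -3.20 (SE 0.321, adjusted p = 0.0101) and -3.51 (SE 0.422, adjusted p = 0.0124, 0.032 with the block). In homozygotes of the other species the groups lay close together, at 1720 and 1659 in S. paradoxus against 2128 and 1940 in S. cerevisiae, and 2760 and 5133 in S. mikatae against 4612 and 3335. Their alleles in hybrids stood at 1553 and 1332 against 6359 and 4154 for S. paradoxus and 2376 and 1844 against 5668 and 10920 for S. mikatae, with log2 ratios of -1.84 (adjusted p = 0.0633) and -1.91 (adjusted p = 0.0576) that missed the threshold. The S. bayanus ratio in homozygotes differed from that of S. paradoxus by -2.94 (SE 0.508, adjusted p = 0.00398) and from that of S. mikatae by -3.14 (SE 0.508, adjusted p = 0.00425). Between alleles the same differences were -1.68 and -1.60 (SE 0.616, adjusted p = 0.0963 and 0.103) and did not pass.

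Of the isozymes of HMG-CoA reductase, the rate-limiting enzyme of the pathway, only HMG1 was called. HMG1 (YML075C) had 3892 and 2267 in S. paradoxus homozygotes against 609 and 563 in S. cerevisiae, and 1633 and 1699 in S. mikatae against 728 and 780.2 in S. cerevisiae. The log2 ratios were 2.34 (SE 0.367, adjusted p = 0.029) and 1.14 (SE 0.228, adjusted p = 0.0435). In S. bayanus it had 974 and 993 against 886 and 669 (log2 ratio 0.35, adjusted p = 0.31), and the S. bayanus ratio lay below that of S. paradoxus by 1.99 in log2 units (SE 0.411, adjusted p = 0.00838). The alleles were close, at 1838 and 2076 against 1565 and 1679 in the S. paradoxus hybrid, 1557 and 1944 against 1626 and 1924 in the S. mikatae hybrid, and 836 and 933 against 1212 and 1369 in the S. bayanus hybrid. HMG2 (YLR450W) passed no test. It had 495 and 175 in S. paradoxus homozygotes against 519 and 318 in S. cerevisiae, 382 and 278 in S. mikatae against 679.6 and 396, and 487 and 509 in S. bayanus against 682 and 922.5, with negative log2 ratios of -0.67 to -0.46 in homozygotes and -0.95 to -0.21 in alleles.

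The remaining mevalonate genes gave 1 call between them. ERG13 (YML126C), the HMG-CoA synthase, had 1822 and 1874 for the S. bayanus allele against 941 and 845 for the S. cerevisiae allele (log2 ratio 1.05, SE 0.161, adjusted p = 0.0186, 0.0496 with the block). Its homozygote values could not be told apart, since S. cerevisiae itself gave 118 and 1711 in the S. paradoxus pair, 160 and 5671 in the S. mikatae pair and 363 and 3787 in the S. bayanus pair. ERG12 (YMR208W), the mevalonate kinase, had 355 and 368 for the S. paradoxus allele against 1642 and 6030 for the S. cerevisiae allele (log2 ratio -3.12, SE 0.68, adjusted p = 0.0755). The S. bayanus allele had 1480 and 719.9 against 451 and 295 (1.497, adjusted p = 0.0788), which passed only with the block, at 0.0417. ERG20 (YJL167W), the farnesyl diphosphate synthase, passed nowhere, with log2 ratios of -0.65 to 0.44.

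Among the 3 genes from farnesyl diphosphate to lanosterol, calls were few. ERG9 (YHR190W), the squalene synthase at the branch point, passed nowhere, with log2 ratios from -1.20 for the S. bayanus allele (adjusted p = 0.0545) to 0.64 in S. mikatae homozygotes. ERG1 (YGR175C), the squalene epoxidase and target of terbinafine, was nearly level in S. bayanus homozygotes, at 821 and 751 against 791 and 771 in S. cerevisiae. In the hybrid, however, the S. bayanus allele had 453 and 634 against 2179 and 1205 for the S. cerevisiae allele, a log2 ratio of -1.60 (SE 0.386, adjusted p = 0.0468, lost at 0.0869 with the block). In the other pairs its groups overlapped or lay near each other, at 1606 and 2895 in S. paradoxus homozygotes against 1169 and 1760, 2237 and 1452 in S. mikatae against 1474 and 1027, 2361 and 3909 for the S. paradoxus allele against 4004 and 2306, and 2353 and 1305 for the S. mikatae allele against 1134 and 2203.

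ERG7 (YHR072W), the lanosterol synthase, had 438 and 369 in S. paradoxus homozygotes against 153 and 176 in S. cerevisiae, a log2 ratio of 1.29 (SE 0.279, adjusted p = 0.047). It had 1096 and 3262 in S. mikatae against 392 and 268 (2.54, SE 0.628, adjusted p = 0.0626), and 419 and 438 in S. bayanus against 366 and 442 (0.09, adjusted p = 0.779). The S. cerevisiae libraries of the S. paradoxus pair were the lowest of the 6, and against all 6 the S. paradoxus log2 ratio was 0.53 (adjusted p = 0.417).

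The late sterol genes, all 11 of them listed, were the largest group, so that their number of calls also follows from its size. Of the 11, 2 were higher and 3 lower in S. paradoxus homozygotes, 5 higher and 1 lower in S. mikatae, and 5 higher and 1 lower in S. bayanus. The shares of all genes called there were 19.9%, 19.6% and 34.6%. ERG11 (YHR007C), the lanosterol demethylase that azoles inhibit, was not among the late genes called. It had 2334 and 3708 in S. paradoxus homozygotes against 2533 and 2008 in S. cerevisiae, 2333 and 1532 in S. mikatae against 2082 and 2544, and 1832 and 2152 in S. bayanus against 1682 and 2114. Its log2 ratios in homozygotes were 0.38, -0.28 and 0.08, with SE of 0.244 to 0.362. Alleles had 3246 and 3892 against 15670 and 2727 in the S. paradoxus hybrid, 2171 and 7572 against 3061 and 3285 in the S. mikatae hybrid, and 1369 and 1461 against 1746 and 1971 in the S. bayanus hybrid, and passed nowhere.

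ERG24 (YNL280C), the sterol reductase that follows it, moved in opposite directions. S. paradoxus homozygotes had 184 and 139 against 414 and 460 in S. cerevisiae, a log2 ratio of -1.44 (SE 0.296, adjusted p = 0.0428). S. mikatae homozygotes had 1079 and 1099 against 459 and 472, a log2 ratio of 1.23 (SE 0.227, adjusted p = 0.0396), and S. bayanus had 514 and 534 against 398 and 364 (0.46, adjusted p = 0.158). The S. mikatae ratio exceeded that of S. paradoxus by 2.67 (SE 0.326, adjusted p = 0.00238). The allele ratios of S. paradoxus and S. mikatae had the same signs as in homozygotes, at 204 and 213 against 451 and 515 in the S. paradoxus hybrid and 625 and 950.2 against 509 and 546 in the S. mikatae hybrid, while that of S. bayanus had the opposite sign, at 329.8 and 435.5 against 569 and 475.5 (-0.46, adjusted p = 0.208). The allele ratios of S. paradoxus and S. mikatae did not pass on their own (-1.20 and 0.55), and their difference, 1.75 (SE 0.388), had an adjusted p of 0.0254, lost at 0.0682 with the library block.

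In the demethylation complex, ERG25 (YGR060W), the methyl oxidase, varied widely between replicates. The S. mikatae allele had 176.5 and 389 against 1524 and 1167 for the S. cerevisiae allele, a log2 ratio of -2.34 (SE 0.476, adjusted p = 0.0492, lost at 0.0988 with the block), and S. mikatae homozygotes had 68 and 144 against 706 and 154 (-1.73, adjusted p = 0.232). ERG26 (YGL001C), the dehydrogenase, had 1719 and 1995 in S. mikatae homozygotes against 457 and 529 in S. cerevisiae (log2 ratio 1.91, SE 0.248, adjusted p = 0.0241), and no other comparison of it passed (0.58 to 1.16). ERG27 (YLR100W), the keto reductase, had 1178 and 1757 in S. bayanus homozygotes against 474 and 615 in S. cerevisiae. The S. bayanus allele had 1241 and 1061 against 598 and 515.5, and both log2 ratios passed, at 1.41 (SE 0.31, adjusted p = 0.0354) and 1.05 (SE 0.189, adjusted p = 0.0251, 0.0486 with the block). In S. paradoxus ERG27 was on the other side, with log2 ratios of -1.05 and -1.01 that did not pass, and the difference between S. bayanus and S. paradoxus was 2.46 in homozygotes (adjusted p = 0.00786) and 2.05 in alleles (adjusted p = 0.00404).

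ERG28 (YER044C), the scaffold that holds this complex together, was higher in homozygotes of all 3 species. It had 3251 and 3224 in S. bayanus against 380.2 and 334 in S. cerevisiae, a log2 ratio of 3.18 (SE 0.205, adjusted p = 0.00995). It had 2567 and 2630 in S. paradoxus against 749 and 682 (1.86, SE 0.255, adjusted p = 0.0244), and 1406 and 1298 in S. mikatae against 485 and 455 (1.52, SE 0.232, adjusted p = 0.0298). No pair of groups overlapped. In hybrids the S. bayanus allele, at 1032 and 741, overlapped with the S. cerevisiae allele at 948 and 869 (log2 ratio -0.05, adjusted p = 0.876), the S. paradoxus allele had 2803 and 2121 against 1010 and 1876 (0.83, adjusted p = 0.277), and the S. mikatae allele 1242 and 1163 against 819 and 806 (0.56, adjusted p = 0.157).

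ERG6 (YML008C), the methyltransferase that gives ergosterol the methyl group cholesterol lacks, had 3760 and 3881 in S. mikatae homozygotes against 1138 and 1555 in S. cerevisiae, and 5820 and 3076 in S. bayanus against 1372 and 1205. The log2 ratios were 1.52 (SE 0.276, adjusted p = 0.0385) and 1.72 (SE 0.386, adjusted p = 0.0376). S. paradoxus was level, at 1370 and 1220.0 against 1177 and 1518, and no allele ratio passed (0.19 to 0.87).

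ERG2 (YMR202W), the sterol isomerase that morpholines inhibit, and ERG3 (YLR056W), the desaturase of the next step, lay on opposite sides of S. cerevisiae in every comparison. ERG2 had 12850 and 14620 in S. mikatae homozygotes against 4549 and 2472 in S. cerevisiae, 7209 and 11720 in S. bayanus against 2269 and 1796, and 6709 and 6979 in S. paradoxus against 2496 and 3123. The other species were above S. cerevisiae in each pair, by log2 ratios of 2.03 (SE 0.396, adjusted p = 0.0419), 2.19 (SE 0.348, adjusted p = 0.0183) and 1.29 (SE 0.289, adjusted p = 0.0488). Among alleles, S. bayanus had 9876 and 8907 against 2383 and 2722 (1.88, SE 0.187, adjusted p = 0.00949, 0.034 with the block). The S. mikatae allele had 7398 and 11350 against 3023 and 3529 (1.49, adjusted p = 0.0576), and the S. paradoxus allele 6024 and 8494 against 5647 and 3484 (0.69, adjusted p = 0.338).

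ERG3 had 898 and 976 in S. paradoxus homozygotes against 3950 and 4494 in S. cerevisiae, 1050 and 1112 in S. mikatae against 4365 and 4509, and 1383 and 1034 in S. bayanus against 4132 and 4911. The log2 ratios were -2.17 (SE 0.265, adjusted p = 0.0237), -2.04 (SE 0.228, adjusted p = 0.0202) and -1.91 (SE 0.264, adjusted p = 0.0148). Alleles stood at 944 and 924.5 against 4561 and 3783 in the S. paradoxus hybrid, 1189 and 1193 against 6907 and 8190 in the S. mikatae hybrid, and 1523 and 1684 against 3352 and 2670 in the S. bayanus hybrid. ERG3 was thus the 1 member below the S. cerevisiae allele in all 3 hybrids at the threshold, with log2 ratios of -2.15 (SE 0.289, adjusted p = 0.0429), -2.66 (SE 0.245, adjusted p = 0.0229) and -0.90 (SE 0.2, adjusted p = 0.0391). With the library as a block these became 0.119, 0.0755 and 0.0789. The S. bayanus allele ratio was closer to 0 than that of S. mikatae by 1.76 (SE 0.321, adjusted p = 0.00775) and that of S. paradoxus by 1.25 (SE 0.321, adjusted p = 0.0299, lost at 0.0688 with the block).

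ERG5 (YMR015C), a cytochrome P450 desaturase, had 1181 and 1186 in S. bayanus homozygotes against 295 and 300.3 in S. cerevisiae, a log2 ratio of 1.99 (SE 0.196, adjusted p = 0.01). Against all 6 S. cerevisiae homozygotes it was 1.33 and did not pass (adjusted p = 0.069). S. paradoxus had 1933 and 1019 against 328 and 447 (1.87, SE 0.429, adjusted p = 0.0507), just outside the threshold. ERG4 (YGL012W), the reductase of the last step, had 1000 and 818.5 in S. paradoxus homozygotes against 3605 and 3742 in S. cerevisiae, a log2 ratio of -2.02 (SE 0.273, adjusted p = 0.0244). Its ratios were near 0 in homozygotes of S. mikatae (-0.33) and of S. bayanus (0.22). The S. bayanus allele had 1185 and 1125 against 2029 and 2031 (-0.81, SE 0.153, adjusted p = 0.0272, lost at 0.0654 with the block), and the S. paradoxus allele 987 and 1593 against 2454 and 2204 (-0.89, adjusted p = 0.2).

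**Figure D2:**
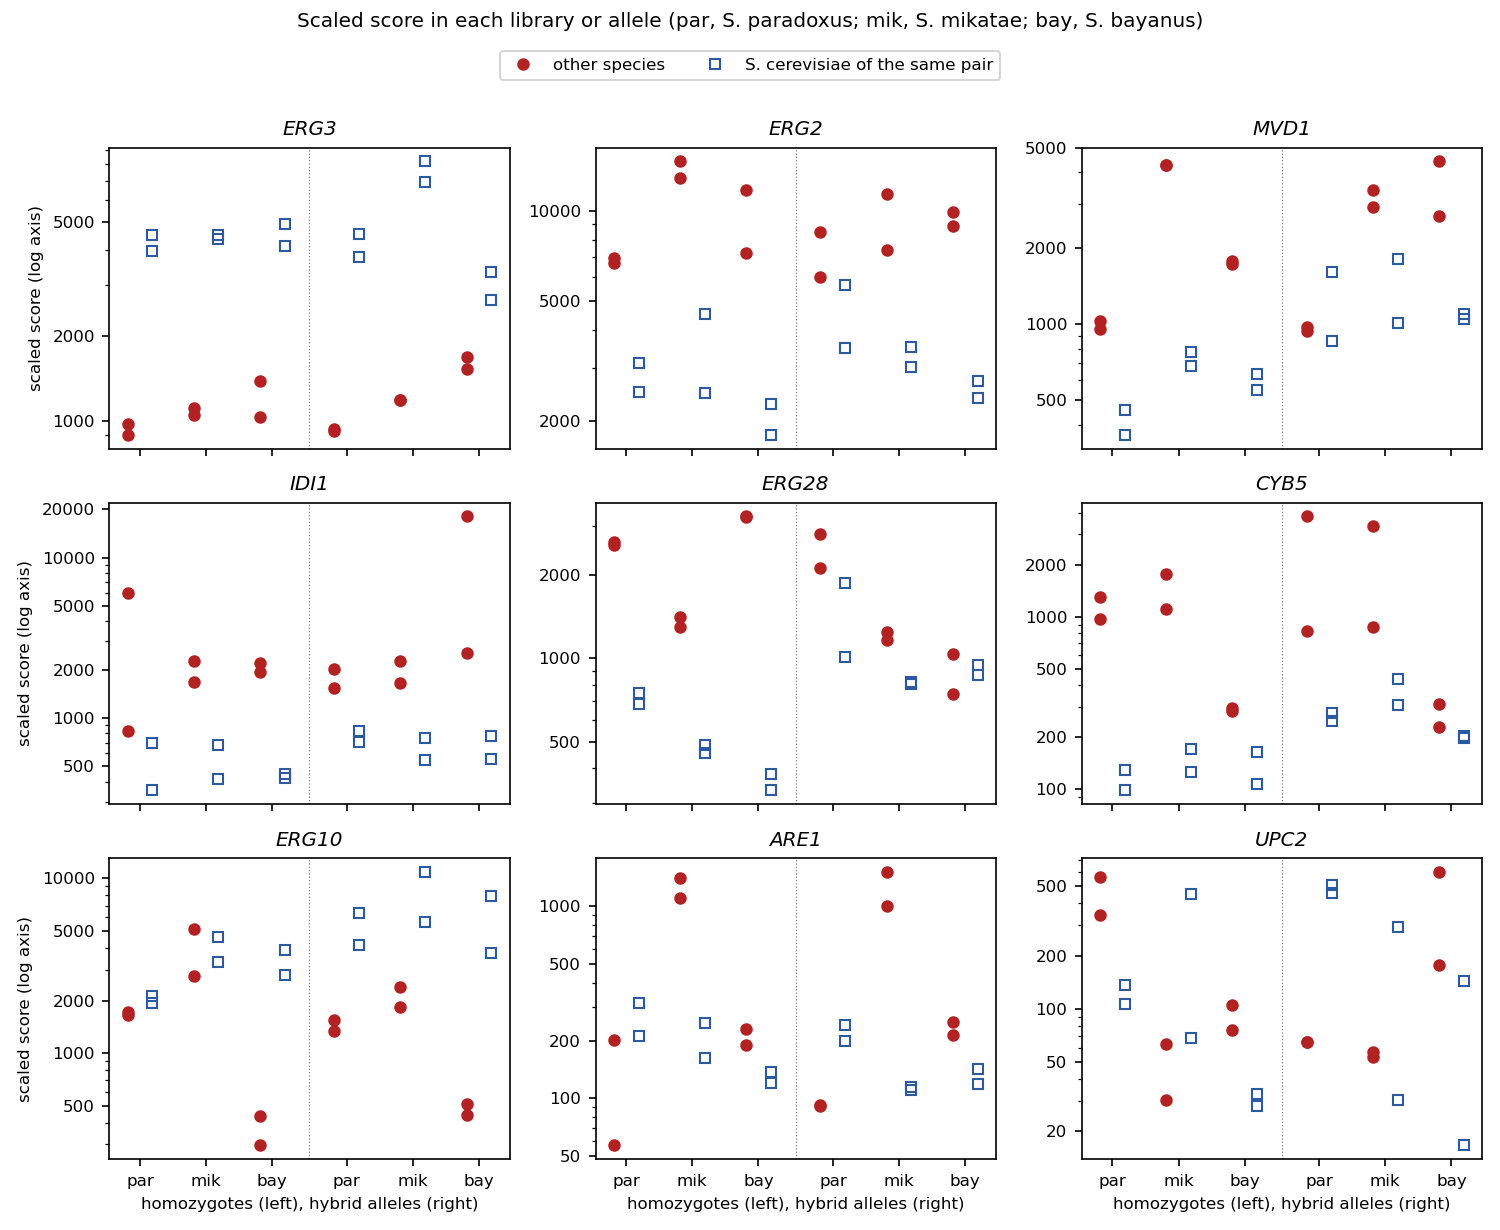
Scaled score (log axis) of 9 members in each library or allele: in every panel the 3 homozygote pairs are on the left and the 3 pairs of hybrid alleles on the right, each in the order S. paradoxus, S. mikatae, S. bayanus, filled red circles are the other species and open blue squares the S. cerevisiae homozygote or allele of the same pair. The red circles of ERG3 lie below the blue squares in all 6 positions (898 to 1684 against 2670 to 8190) and those of ERG2 above them, while ERG28 in S. bayanus is apart in homozygotes (3251 and 3224 against 380.2 and 334) and overlaps in alleles.

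The electron donors of these oxygenases differed in their pattern. CYB5 (YNL111C), cytochrome b5, had 1297 and 976 in S. paradoxus homozygotes against 129.6 and 98.9 in S. cerevisiae, and 1770 and 1105 in S. mikatae against 126 and 172. These log2 ratios, 3.30 (SE 0.317, adjusted p = 0.0225) and 3.24 (SE 0.367, adjusted p = 0.0206), were the highest of any member in those homozygotes. S. bayanus was nearer, at 296 and 284 against 165 and 108 (1.11, SE 0.312, adjusted p = 0.0602), and its ratio was below those of S. paradoxus and S. mikatae by 2.19 and 2.13 (SE 0.493, adjusted p = 0.0123 and 0.018). The S. paradoxus allele had 829 and 3814 against 249 and 277, the S. mikatae allele 3347 and 872 against 438 and 309.6, and the S. bayanus allele 231 and 310.4 against 197 and 203. No pair of alleles overlapped, yet the spread between replicates left log2 ratios of 2.75 (SE 0.781, adjusted p = 0.116), 2.21 (SE 0.736, adjusted p = 0.114) and 0.42 (SE 0.238, adjusted p = 0.242). NCP1 (YHR042W), the P450 reductase, passed only in S. bayanus homozygotes, at 429 and 390.3 against 955 and 996 in S. cerevisiae (-1.25, SE 0.203, adjusted p = 0.019).

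ARE1 (YCR048W), which esterifies sterols for storage, was far above S. cerevisiae in S. mikatae. S. mikatae homozygotes had 1099 and 1398 against 248 and 162 in S. cerevisiae, and alleles 1010 and 1514 against 110 and 114, with log2 ratios of 2.63 (SE 0.337, adjusted p = 0.0239) and 3.45 (SE 0.306, adjusted p = 0.0229, lost at 0.0755 with the block). In S. paradoxus it was on the other side, at 56.9 and 202 against 210.5 and 313 in homozygotes and 91.4 and 92.7 against 240.4 and 198 in alleles (log2 ratios -1.25 and -1.24, neither past the threshold). In S. bayanus the values were 230.5 and 188.5 against 137 and 119.6 in homozygotes and 213 and 250.3 against 119 and 142 in alleles. The S. mikatae ratio exceeded that of S. paradoxus by 3.88 in homozygotes (SE 0.76, adjusted p = 0.0143) and 4.69 in alleles (SE 0.388, adjusted p = 0.00115), and the S. bayanus allele ratio lay below that of S. mikatae by 2.63 (SE 0.388, adjusted p = 0.00338). In homozygotes the S. bayanus ratio was below that of S. mikatae by 1.93, which did not pass (adjusted p = 0.103).

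Of the 3 listed regulators, UPC2 (YDR213W) alone was called without the library block. It had 562 and 341 in S. paradoxus homozygotes against 106 and 136 in S. cerevisiae, a log2 ratio of 1.86 (SE 0.376, adjusted p = 0.042). In the hybrid the S. paradoxus allele had 64.5 and 64.6 against 454 and 505 for the S. cerevisiae allele, a log2 ratio of -2.87 (SE 0.288, adjusted p = 0.0362, lost at 0.119 with the block). The groups were apart in both, in opposite directions. S. bayanus homozygotes had 76 and 105 against 32.5 and 27.8 (1.54, SE 0.351, adjusted p = 0.0385), and its alleles 600.4 and 177 against 16.7 and 143 (2.70, SE 1.28, adjusted p = 0.18). S. mikatae had 30.1 and 62.5 against 449 and 67.8 in homozygotes and 52.8 and 56.8 against 293 and 30.3 in alleles, and passed in neither. The S. cerevisiae values of UPC2 ranged from 27.8 to 449 among homozygotes, and against all 6 the log2 ratio was 2.33 in S. paradoxus (adjusted p = 0.101) and 0.05 in S. bayanus (adjusted p = 0.974), so that both calls were lost. Among S. cerevisiae alleles they ranged from 16.7 to 505, and those of the S. paradoxus hybrid, 454 and 505, were the highest.

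ECM22 (YLR228C), the paralog of UPC2, had 124 and 553 in S. paradoxus homozygotes against 605 and 333 in S. cerevisiae, 218 and 164 in S. mikatae against 738 and 402, and 738.5 and 708 in S. bayanus against 982 and 1104. Its alleles had 188 and 207 against 131 and 251 in the S. paradoxus hybrid, 201 and 196 against 172 and 97.9 in the S. mikatae hybrid, and 274 and 213 against 386 and 411 in the S. bayanus hybrid. It passed nowhere, and the log2 ratio nearest to the threshold was -1.52 in S. mikatae homozygotes (SE 0.414, adjusted p = 0.0743), with the same adjusted p for -0.72 in S. bayanus alleles. SUT1 (YGL162W), a factor of sterol uptake, was among the least repeatable members. It had 197 and 431 in S. paradoxus homozygotes against 441 and 484 in S. cerevisiae, 27.7 and 55.5 in S. mikatae against 583 and 75.6, and 56.4 and 13.2 in S. bayanus against 20.5 and 489. Its alleles had 319 and 556 against 433 and 79.2, 465 and 27.6 against 129 and 648, and 72.5 and 6.5 against 423 and 33.9 in the hybrids with S. paradoxus, S. mikatae and S. bayanus. The S. bayanus allele was called only with the library as a block (log2 ratio -2.37, adjusted p = 0.0409, against 0.356 without).

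Total and allelic differences were then set against each other gene by gene. They had the same sign in 19 of 28 members in S. paradoxus (67.9%), 20 in S. mikatae (71.4%) and 21 in S. bayanus (75%), beside 67.2%, 75.5% and 78.2% of all genes. The correlation of total with allelic log2 ratios across the 28 genes, given as a description since genes are not independent replicates, was 0.532, 0.745 and 0.781, beside 0.555, 0.703 and 0.755 across all genes. Called in both were 2 members in S. paradoxus (ERG3 and, in opposite directions, UPC2), 3 in S. mikatae (IDI1, ERG3 and ARE1) and 5 in S. bayanus (ERG10, MVD1, ERG27, ERG2 and ERG3), that is 7.14%, 10.7% and 17.9% of the members, beside 2.25%, 7.51% and 20.5% of all genes.

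The difference between the total and the allelic log2 ratio was tested itself. It passed for 1 member in S. paradoxus, against 0.808% of all genes, for none in S. mikatae, against 0.109%, and for 1 in S. bayanus, against 1.84%. With the library block these backgrounds were 0.327%, 0% and 0.852%. In S. mikatae, 6 members had an unadjusted p under 0.05 in limma without the block, beside 638 of all 4567 genes. At the same cut there were 7 in S. paradoxus, beside 926 of 4582 genes, and 8 in S. bayanus, beside 845 of 4575. Of the members past the adjusted threshold, UPC2 in S. paradoxus was the first, with a difference of 4.73 (SE 0.477, adjusted p = 0.0134). It stayed past the threshold with the library block (0.0425) and was lost against all 6 S. cerevisiae homozygotes (5.20, adjusted p = 0.125). ERG28 in S. bayanus was the other, at 3.23 (SE 0.31, adjusted p = 0.0169), past the threshold with the block (0.0414) and against all 6 homozygotes (2.77, adjusted p = 0.0199). With a library left out, UPC2 held without the first or the second S. paradoxus homozygote (adjusted p = 0.0464 and 0.0392) and was lost in the other 4 of 6 cases (0.0882 to 0.18), and ERG28 held without the first S. cerevisiae homozygote (0.0482) and was lost in the other 5 (0.055 to 0.156), while the difference itself stayed between 4.37 and 5.09 for UPC2 and between 3.06 and 3.41 for ERG28. The total was above the allelic ratio in all 3 species for 9 members (32.1%), beside 12.9% of all genes: ERG10, HMG1, ERG9, ERG1, ERG7, ERG28, ERG2, ERG5 and CYB5. Of these, only ERG28 in S. bayanus passed.

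**Figure D3:**
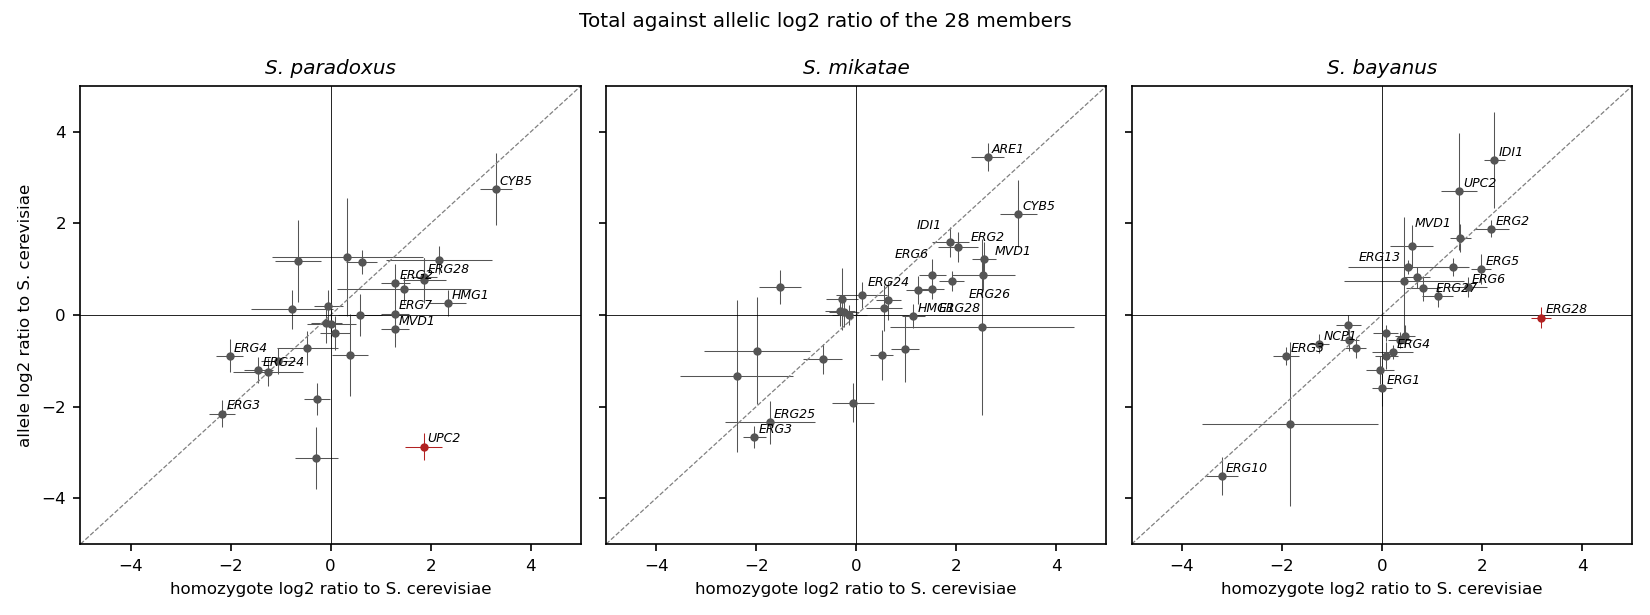
Allelic log2 ratio in hybrids (vertical) against the total log2 ratio in homozygotes (horizontal) of the 28 members, 1 panel per species, with bars of 1 SE and a dashed line where both are equal; labels mark members called in either, and red marks a called difference between total and allelic ratio. UPC2 in S. paradoxus (1.86 total, -2.87 allelic) and ERG28 in S. bayanus (3.18 total, -0.05 allelic) are the red points.

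Differences between species were tested between their ratios, each of which carries its own S. cerevisiae libraries. In homozygotes, 8 members (28.6%) differed between S. bayanus and S. paradoxus, against 27.9% of all genes, 5 (17.9%) between S. bayanus and S. mikatae, against 21.4%, and 4 (14.3%) between S. mikatae and S. paradoxus, against 14.9%. In alleles the counts were 6 (21.4%, against 18.1%), 4 (14.3%, against 18.9%) and 2 (7.14%, against 10.8%). These shares were within a few points of all genes throughout. Besides the genes above, ERG4 was higher in S. bayanus than in S. paradoxus homozygotes by 2.24 (SE 0.488, adjusted p = 0.0107), relative to S. cerevisiae, and ERG12 was higher in the S. bayanus than in the S. paradoxus allele by 4.62 (SE 1.05, adjusted p = 0.0192). These fits have no library block. With one, added after the data were seen, 3 of the 6 allelic differences between S. bayanus and S. paradoxus passed (ERG12, ERG27 and ARE1), 2 of 4 between S. bayanus and S. mikatae (ERG3 and ARE1) and 1 of 2 between S. mikatae and S. paradoxus (ARE1). With each library left out in turn, also added then, ERG27 between S. bayanus and S. paradoxus and ARE1 between S. mikatae and either other species passed among alleles in 4 of 4 cases, ERG3 between S. bayanus and S. mikatae in 2 of 4 (adjusted p = 0.0398 to 0.0862), ERG12 in 1 of 4 (0.0382 to 0.11), and ERG24 and ERG3 against S. paradoxus in 0 of 4 (0.0638 to 0.116 and 0.0699 to 0.21). Among homozygotes, every difference named for ERG10, HMG1, ERG24, ERG27 and ERG4 passed in 8 of 8 cases, CYB5 in 8 of 8 against S. paradoxus and 4 of 8 against S. mikatae (0.0182 to 0.0589), and ARE1 between S. mikatae and S. paradoxus in 7 of 8, failing without S. cerevisiae replicate 2 (adjusted p = 0.0516).

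The repeatability of the members was followed in the S. cerevisiae homozygotes, of which there were 6. The highest library exceeded the lowest by a median of 2.26-fold over the 28 members, beside 2.59-fold over 4564 genes, and by over 5-fold in 4 members (14.3%), beside 22% of all genes. These 4 were ERG13 (48.1-fold), SUT1 (28.5-fold), UPC2 (16.2-fold) and ERG25 (14.3-fold). ERG3 lay at the other end of the range of scatter, with 3950 to 4911 in the 6 libraries, although its S. cerevisiae alleles ran over 2670 to 8190. Single values far above their partner also occurred in hybrids, such as 27820 against 643.5 for the S. cerevisiae allele of ERG13 in the S. mikatae hybrid, 15670 against 2727 for that of ERG11 in the S. paradoxus hybrid and 18070 against 2539 for the S. bayanus allele of IDI1.

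**Figure D4:**
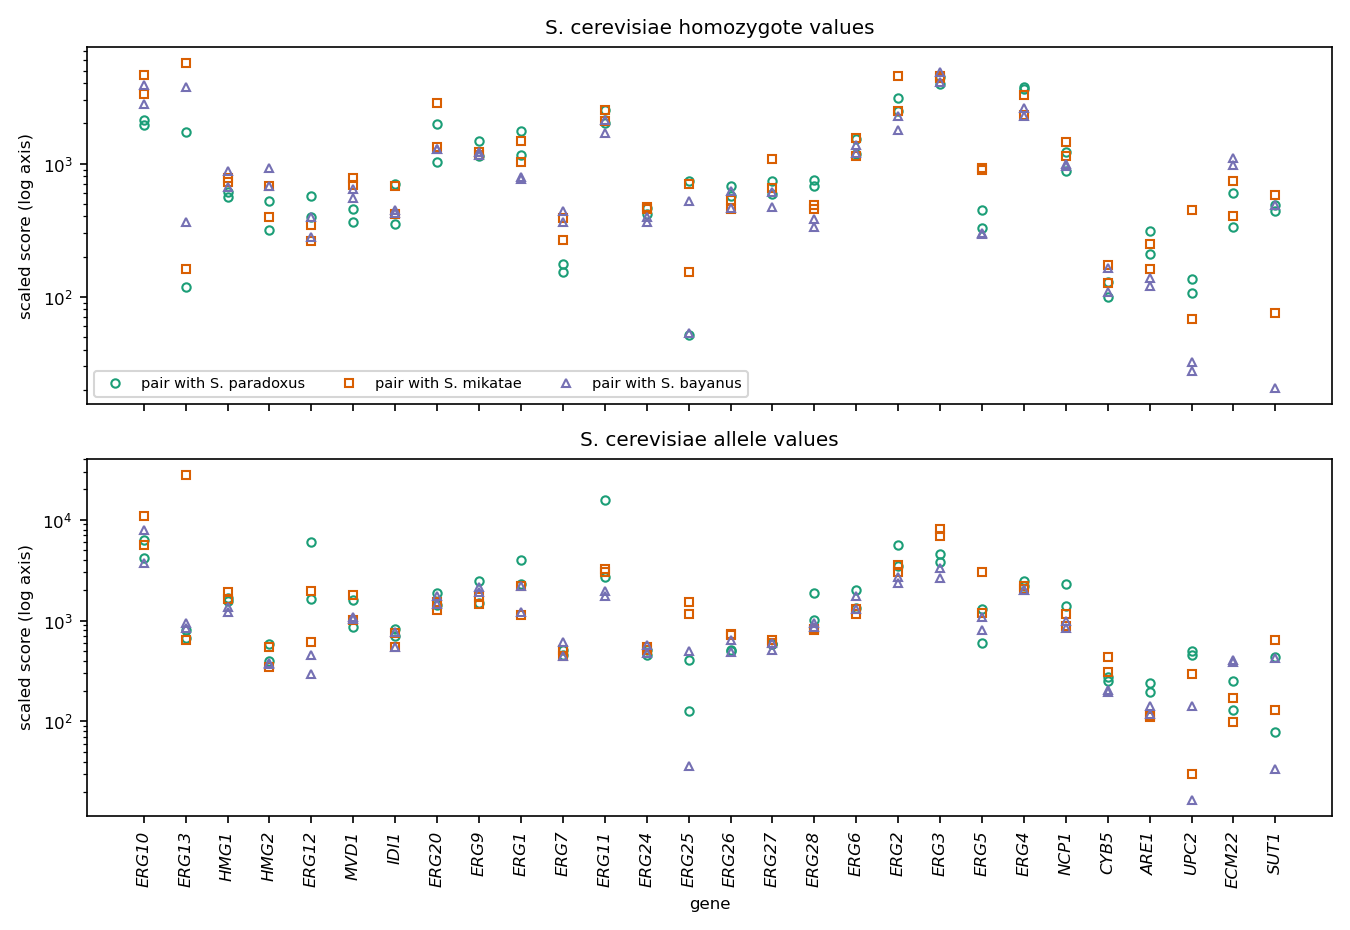
Scaled score (log axis) of the S. cerevisiae homozygotes (top, 6 libraries) and S. cerevisiae alleles (bottom, 6 hybrid libraries) for each member in pathway order; colour and shape give the pair. Each homozygote pair has 1 low and 1 high value of ERG13 (118 and 1711, 160 and 5671, 363 and 3787), while ERG3 lies between 3950 and 4911 in homozygotes and between 2670 and 8190 in alleles.

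Beside the pathway, 21 other genes of sterol and isoprenoid metabolism were counted, of which 19 could be tested. In homozygotes, 1 was higher and 1 lower in S. paradoxus, 0 higher and 1 lower in S. mikatae, and 4 higher and 4 lower in S. bayanus, and in alleles 1 higher and 1 lower, 3 and 1, and 4 and 3. Of all genes, 19.9%, 19.6% and 34.6% were called in homozygotes and 5.03%, 15.8% and 35.4% in alleles, in the same order. The genes of this list called in both of 1 species were COQ1 in S. mikatae, lower, and DAP1, NSG1, SAY1 and RAM1, higher, and NSG2 and NPC2, lower, in S. bayanus. Of all genes, 7.51% in S. mikatae and 20.5% in S. bayanus were called in both. DAP1 (YPL170W), a heme-binding activator of Erg11, had log2 ratios of 1.69 and 2.10 in S. bayanus homozygotes and alleles (SE 0.234 and 0.219, adjusted p = 0.0149 and 0.00998). NSG1 (YHR133C), which stabilizes Hmg2, had 2.47 and 3.25 (SE 0.236 and 0.206, adjusted p = 0.01 and 0.00697). Its paralog NSG2 (YNL156C) was near the lower end of detection in S. bayanus, with 7.6 and 7.01 in homozygotes against 199 and 223 in S. cerevisiae, and 5.92 and 4.88 for the S. bayanus allele against 522 and 394 for the S. cerevisiae allele. NPC2 (YDL046W), a sterol carrier of the vacuole, had 1.9 and 0.779 in S. bayanus homozygotes against 1302 and 1114, and was listed at 0 for the S. bayanus allele in both hybrid libraries against 1463 and 1679. Its deposited values in the S. bayanus homozygotes were 3 and 1. Whether S. bayanus reads of NSG2 and NPC2 were lost in mapping or filtering was not tested. Of 14 genes known to respond to oxygen or heme, 10 or 11 were tested, and in homozygotes 1 higher and 1 lower passed in S. paradoxus, 0 and 3 in S. mikatae and 1 and 1 in S. bayanus, and in alleles 0 and 0, 0 and 1, and 3 and 2, in the same order. The shares of all genes to set beside these counts are those given above. CYC1 (YJR048W), a cytochrome c, was lower in S. mikatae in both kinds of library (log2 ratios -2.19 and -5.89, SE 0.305 and 0.265, adjusted p = 0.0259 and 0.018), and YHB1 (YGR234W), a flavohemoglobin, was lower in S. bayanus, at 3.17 and 5.45 in homozygotes against 6504 and 5730, and at 93.2 and 89.4 for the allele against 1399 and 3579. HEM13 (YDR044W), an oxygen-requiring enzyme of heme synthesis, was higher in S. bayanus in both kinds of library (log2 ratios 1.26 and 1.46, SE 0.317 and 0.329, adjusted p = 0.048 and 0.0404).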

How the data were processed

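RNA-seq of transcript ends was measured in 12 homozygote and 6 hybrid libraries. Per the study's methods, the authors trimmed poly-T stretches, mapped reads with Bowtie 0.12.7 to both genomes of a species pair, kept unique hits, filtered internal priming, weighted reads for GC content (EDASeq, full-quantile) and summed them on the sense strand from 50 bp before to 500 bp after each open reading frame; CASAVA 1.7 is also named. The genome release was not given in the sources used here. The deposited values are therefore scores, whole numbers of weighted reads not scaled between libraries, and neither counting intervals nor floors were computed.

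Each library or allele was scaled to the same upper quartile (0.75). Genes with a mean scaled score of at least 10 were tested on log2(score + 1) with limma 3.58.1 (lmFit and eBayes with a trend, R 4.3.3), adjusted over all genes, with a threshold of 0.05; a log2 ratio understates the change of low genes. No count model was used, because the score is not a plain count. The method was tested on simulated data. The pair of each S. cerevisiae homozygote library came from the genomes its deposited values were made for, not from the labels, and all 6 were also tried as the reference. Hybrid alleles pair by library, so a block for the library was fitted too. Over all genes the replicate differences of the alleles correlated at 0.011 to 0.059, and those of the homozygotes at -0.01 to 0.025. The methods name the replicates of each strain biological. Other alternatives were scaling by totals or by the median of ratios, 1 upper quartile for both alleles, an added constant of 8, no filter or a minimum of 50, 1 fit over 12 columns, and leaving out each library. For differences between species, the block and the leaving out of libraries were chosen after seeing the data.

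Members and lists were chosen with earlier results of these data known. All members are accounted for. Values per sample are given for members past the threshold in total, allelic or total minus allelic ratios, for the regulators, and for HMG1, HMG2, ERG1 and ERG11. Of the other lists, genes were named only where called in both kinds of ratio of 1 species. Promoters were searched with Python 3.11.15 and pandas 2.3.3.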

Additional observations from a re-analysis of the deposited data

Results flagged for a closer look

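Single values stood apart from the rest of their group of 6 S. cerevisiae values, relative to the range of that group, in 4 of 56 groups examined. Chance alone gives about 1 in 20 for independent values, while these groups are made of 3 pairs. The rate over all genes was not computed. Flagged were the highest homozygote value of ERG9 (1483, in a narrow group from 1138), and the highest S. cerevisiae allele values of ERG13 (27820), ERG11 (15670) and ERG28 (1876).

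The total and the allelic log2 ratio differed by test for UPC2 in S. paradoxus, by 4.73 (adjusted p = 0.0134), and for ERG28 in S. bayanus, by 3.23 (adjusted p = 0.0169). In 4 further cases the homozygotes lay on 1 side of S. cerevisiae and the alleles on the other in every library, without the difference passing: ERG5 in S. mikatae (1.39, adjusted p = 0.406), ECM22 in S. mikatae (-2.13, adjusted p = 0.203), HMG1 in S. bayanus (0.90, adjusted p = 0.186) and ERG24 in S. bayanus (0.92, adjusted p = 0.194). The share of all genes with such a pattern was not computed, so these 4 cases are a description only.

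Between species, differences of total log2 ratios past the threshold in S. bayanus minus S. paradoxus were -2.94 for ERG10, -1.99 for HMG1, 1.90 for ERG24, 2.46 for ERG27, 1.32 for ERG28, 1.77 for ERG6, 2.24 for ERG4 and -2.19 for CYB5. In S. bayanus minus S. mikatae they were -3.14 for ERG10, -2.45 for ERG7, 1.66 for ERG28, 1.48 for ERG5 and -2.13 for CYB5. In S. mikatae minus S. paradoxus they were 1.27 for MVD1, 2.67 for ERG24, 3.88 for ARE1 and -3.84 for UPC2. With each library left out in turn, chosen after seeing the data, several did not pass in every case. These were ERG6 of the first group (1.31 to 2.23), and ERG7 (-3.24 to -1.67), ERG5 (1.40 to 1.55) and CYB5 (-2.47 to -1.79) of the second. In the last group they were MVD1 (1.11 to 1.43), ARE1 (2.97 to 4.78) and UPC2 (-5.20 to -2.49). ERG5 passed in no case.

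Allelic log2 ratios differed in S. bayanus minus S. paradoxus by 4.62 for ERG12, 1.98 for MVD1, 2.05 for ERG27, 1.25 for ERG3, 2.06 for ARE1 and 5.57 for UPC2. In S. bayanus minus S. mikatae they differed by -1.75 for ERG7, 1.05 for ERG27, 1.76 for ERG3 and -2.63 for ARE1, and in S. mikatae minus S. paradoxus by 1.75 for ERG24 and 4.69 for ARE1. With the library as a block, chosen after seeing the data, MVD1, ERG3 and UPC2 of the first group, ERG7 and ERG27 of the second and ERG24 of the last no longer passed (adjusted p = 0.0597, 0.0688, 0.108, 0.0586, 0.0807 and 0.0682).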

How the results depend on the processing

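Of 869 values of the 77 member calls under the alternatives, 685 stayed past the threshold and 184 did not, 127 of these with a library left out, and none changed direction. Members called in S. paradoxus homozygotes were 6 (3 higher, 3 lower) when scaled by totals and 1 with a replicate block, against 10. The replicate numbers there mark no shared source. In the S. paradoxus hybrid 8 were called in 1 fit over 12 columns (2 higher, 6 lower) and 0 with the library block, against 2, and in the S. mikatae hybrid 0 with the library block, against 4. Total minus allelic ratios gave 0 in S. paradoxus against all 6 S. cerevisiae libraries, against 1. The library block ended 15 of 28 calls; for allelic differences between species, where it was added after the data were seen, it left 3 of 6 (S. bayanus minus S. paradoxus), 2 of 4 (S. bayanus minus S. mikatae) and 1 of 2 (S. mikatae minus S. paradoxus). Without 1 library, the calls ranged over 8 to 11, 9 to 11 and 8 to 10 in S. paradoxus, S. mikatae and S. bayanus homozygotes, 1 to 1, 3 to 4 and 2 to 2 in alleles, and 0 to 1, 0 to 0 and 0 to 1 for total minus allelic ratios. For the same differences between species, in the same order and also added then, they ranged over 7 to 8, 2 to 5 and 1 to 4 in homozygotes, and 2 to 2, 1 to 4 and 1 to 2 in alleles; a lone library was assumed to vary like the other groups.

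Over all genes, calls in S. paradoxus homozygotes were 911, and 337 with the replicate block; in S. mikatae 894, 1484 against all 6 S. cerevisiae libraries and 1368 in 1 fit over 12. Allelic calls were 227 and 775 in the S. paradoxus hybrid and 715 and 1205 in the S. mikatae hybrid, each alone and in 1 fit over 12, and 0 in both with the block; in the S. bayanus hybrid they were 1606, and 596 to 626 with a library left out. Calls of total minus allelic ratios were 37 in S. paradoxus, 60 with totals, 58 with the constant of 8, 24 with the minimum of 50, 21 against all 6 and 15 with the block; 5 in S. mikatae and 0 to 37 under the alternatives; and 84 in S. bayanus, 127 with the minimum of 50 and 39 with the block. Scaling moved the split of higher and lower calls, 384 and 527 in S. paradoxus homozygotes, to 290 and 729 with totals and 482 and 428 with the median of ratios, and 375 and 519 in S. mikatae to 272 and 778, and 421 and 405. With 1 quartile for both alleles it was 168 and 115 instead of 111 and 116 in the S. paradoxus hybrid, and 423 and 307 instead of 353 and 362 in the S. mikatae hybrid. Of differences between species, those between alleles were 827, 864 and 495, in the order above, 574, 647 and 179 with the block, and 252 to 494, 294 to 476 and 147 to 265 with a library left out; those between homozygotes were 1284, 986 and 686, and 888 to 1219, 623 to 821 and 303 to 621 with a library left out. The cause was not tested.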
